A study of Homo sapiens with 2 samples.

Results

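The 40 genes described here encode the subunits, inhibitors, kinases, adaptors and a few target genes of NF-κB, a family of dimeric transcription factors. They were chosen by gene symbol for their role in the pathway, with cytokines and receptors left out. Earlier results of these data were known when they were chosen. All 40 were among the 60671 genes of the deposited count table. RNA was sequenced from C4-2B cells, a human prostate cancer line that models castration-resistant disease. One culture received vehicle and the other received 1 µM (R)-9b overnight, a small molecule that inhibits the kinase ACK1 (TNK2), and neither carried an engineered allele. With 1 library for each condition, the spread between cultures was not measured, so no test was made and every interval below covers counting error only. An effect of (R)-9b and a difference between the 2 cultures cannot be told apart.

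NF-κB dimers are held in the cytoplasm by IκB proteins. In the canonical pathway, receptors and adaptors activate the IκB kinase complex, which marks IκBα for degradation and frees dimers such as p50 with RELA. In the noncanonical pathway, the kinase NIK (MAP3K14) drives processing of the NFKB2 product p100 to p52, which acts with RELB. Several genes of the pathway, NFKBIA, NFKB2, TNFAIP3 and BIRC3 among them, are themselves textbook NF-κB targets, so that inhibitors rise when the pathway is active. Prostate cancer lines differ in how active the pathway is at rest.

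Gene counts totalled 65207444 for vehicle and 57653965 for (R)-9b. Levels are given as CPM, counts scaled by library size and TMM factor, and ratios are (R)-9b over vehicle on the log2 scale with an exact 95% counting interval. The share of counts from mitochondrially encoded genes was 1.49% for vehicle and 9.54% for (R)-9b. Scaling without these genes left the same 4 members above 2-fold. The 10 prostate epithelial markers summed to 5669 CPM in vehicle against 10220 CPM with (R)-9b, and KLK3 was abundant in both. The sample labels name breast cancer as the cell type, whereas the breast markers ESR1, PGR and SCGB2A2 summed to 12 counts in vehicle against 4 counts with (R)-9b. Leukocytes, which use NF-κB strongly, were not in evidence in these libraries. Of 10 leukocyte markers, 5 had 0 counts in both libraries, PTPRC and CD3D among them, and the 10 together gave 0.285 CPM in vehicle against 0.407 CPM with (R)-9b. The 8 stromal and endothelial markers summed to 31.2 CPM and 46.9 CPM, mostly from COL1A1 and VWF, while DCN had 0 and 2 counts.

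The promoter sequences of 6 members are shown first, because these are the genes the results turn on, the 4 with the largest increase, and the inhibitors NFKBIA and NFKBIB, which moved in opposite directions. Each runs 5′ to 3′ on the strand of the gene, from 250 bases before to 50 bases after a RefSeq start (GRCh38.p14). Capitals mark matches to the κB consensus on either strand. This consensus was searched as GGGNNNNNCC with a purine at position 4 and pyrimidines at positions 7 and 8, and overlapping matches were merged. The windows are chr10:102393860-102394159, chr10:102394328-102394627 and chr10:102395455-102395754 (all plus strand) for the upstream, middle and downstream starts of NFKB2, chr3:101827740-101828039 and chr3:101849264-101849563 (both plus strand) for the upstream and downstream starts of NFKBIZ, chr1:206470226-206470525 (plus strand) for IKBKE, chr1:37474330-37474629 (plus strand) for ZC3H12A, chr14:35404700-35404999 (minus strand) for NFKBIA and chr19:38899719-38900018 (plus strand) for NFKBIB.
NFKB2 upstream start: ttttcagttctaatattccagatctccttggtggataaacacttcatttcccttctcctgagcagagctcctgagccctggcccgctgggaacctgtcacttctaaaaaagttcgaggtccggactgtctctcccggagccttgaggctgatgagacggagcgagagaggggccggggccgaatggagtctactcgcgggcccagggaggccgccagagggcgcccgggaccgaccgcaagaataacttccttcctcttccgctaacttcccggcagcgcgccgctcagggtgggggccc
NFKB2 middle start: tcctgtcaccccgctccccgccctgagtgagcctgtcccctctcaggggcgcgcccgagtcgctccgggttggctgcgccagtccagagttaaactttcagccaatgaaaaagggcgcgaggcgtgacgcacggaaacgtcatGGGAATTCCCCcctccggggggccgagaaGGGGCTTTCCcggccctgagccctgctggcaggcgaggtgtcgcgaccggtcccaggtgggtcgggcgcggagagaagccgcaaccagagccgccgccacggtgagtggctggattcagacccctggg
NFKB2 downstream start: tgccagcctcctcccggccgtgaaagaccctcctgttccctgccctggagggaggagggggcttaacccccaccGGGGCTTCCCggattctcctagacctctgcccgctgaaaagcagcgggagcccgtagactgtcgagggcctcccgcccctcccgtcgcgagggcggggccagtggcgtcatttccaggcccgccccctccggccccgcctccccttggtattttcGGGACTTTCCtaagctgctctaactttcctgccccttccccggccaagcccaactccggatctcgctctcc
NFKBIZ upstream start: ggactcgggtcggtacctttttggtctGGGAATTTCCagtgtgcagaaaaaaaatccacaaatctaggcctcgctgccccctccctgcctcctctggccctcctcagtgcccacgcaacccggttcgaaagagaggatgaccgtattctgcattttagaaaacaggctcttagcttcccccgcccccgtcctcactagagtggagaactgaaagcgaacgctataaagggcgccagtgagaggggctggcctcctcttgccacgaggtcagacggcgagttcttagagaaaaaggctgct
NFKBIZ downstream start: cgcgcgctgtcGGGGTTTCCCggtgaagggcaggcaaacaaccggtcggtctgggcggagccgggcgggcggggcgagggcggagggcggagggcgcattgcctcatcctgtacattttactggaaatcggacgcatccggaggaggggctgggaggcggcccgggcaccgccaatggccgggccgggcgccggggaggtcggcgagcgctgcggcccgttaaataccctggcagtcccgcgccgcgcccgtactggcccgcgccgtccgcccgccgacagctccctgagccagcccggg
IKBKE: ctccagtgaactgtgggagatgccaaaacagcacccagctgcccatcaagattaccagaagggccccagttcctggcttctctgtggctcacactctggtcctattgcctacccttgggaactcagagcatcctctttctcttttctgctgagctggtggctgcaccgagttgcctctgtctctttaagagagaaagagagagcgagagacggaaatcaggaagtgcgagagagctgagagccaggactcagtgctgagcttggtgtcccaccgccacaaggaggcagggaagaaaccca
ZC3H12A: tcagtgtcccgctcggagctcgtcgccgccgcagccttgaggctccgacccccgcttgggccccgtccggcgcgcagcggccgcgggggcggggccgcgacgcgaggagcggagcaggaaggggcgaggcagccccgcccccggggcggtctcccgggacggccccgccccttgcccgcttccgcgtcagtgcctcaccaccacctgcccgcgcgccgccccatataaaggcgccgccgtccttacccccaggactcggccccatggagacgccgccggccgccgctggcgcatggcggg
NFKBIA: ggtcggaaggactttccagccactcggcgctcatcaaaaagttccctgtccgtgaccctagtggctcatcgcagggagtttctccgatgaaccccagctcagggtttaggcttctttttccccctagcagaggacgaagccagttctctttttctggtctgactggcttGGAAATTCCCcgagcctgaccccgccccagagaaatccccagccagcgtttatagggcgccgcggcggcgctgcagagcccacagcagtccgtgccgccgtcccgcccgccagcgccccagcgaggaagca
NFKBIB: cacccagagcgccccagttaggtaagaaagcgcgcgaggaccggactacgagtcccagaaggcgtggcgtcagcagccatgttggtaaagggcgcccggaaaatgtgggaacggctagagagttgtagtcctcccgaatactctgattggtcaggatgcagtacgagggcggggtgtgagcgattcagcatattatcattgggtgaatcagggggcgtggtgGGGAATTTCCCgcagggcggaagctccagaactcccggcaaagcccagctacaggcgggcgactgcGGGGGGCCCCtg

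RefSeq promoter windows were found for 36 of the 40 members, 61 windows in all. A κB match lay in at least 1 window of 15 members (41.7%). Over all genes with a window this share was 13.3%, and 11.3% of all 35116 windows of this length held a match. Members with several starts have more windows to search, and among the 21 members with 1 window 8 held a match, against 10.5% of all such genes. The member list was drawn up around NF-κB and holds genes long known for κB sites, so this share describes the list. In NFKB2 the upstream window held no match, the middle window held a match 107 to 98 bases before the start, overlapped by another, and a further one 78 to 69 bases before it, and the downstream window held matches 176 to 167 and 21 to 12 bases before its start. NFKBIZ had 1 match in each window, 223 to 214 bases before the upstream start and 239 to 230 before the downstream one. The NFKBIA match lay 81 to 72 bases before the start. NFKBIB has a further window just upstream of the one shown, with no match. IKBKE and ZC3H12A had no match in the window, which says only that these letters were not within this window. Among the 15 members with a match, the interval of the expression ratio lay above 0 for 11 and below 0 for 3, and the median log2 ratio was 0.51. Among the 19 members with a window but no match that had enough counts, these numbers were 9 and 6, with a median of 0.07. Over all 23446 genes with at least 10 counts, 29.8% had an interval above 0 and 31.1% below it. Whether a κB match bears on the ratio was not tested. Members that were lower with (R)-9b, such as NFKBIB and CYLD, also held matches.

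Across the list, more members were higher than lower in the (R)-9b library. The list was chosen with earlier results of these data known, so the shares below describe the list and test nothing. NFKBIZ, ZC3H12A, IKBKE and NFKB2 were the 4 members whose whole interval lay above 2-fold, 4 of the 38 members with at least 10 counts over both libraries (10.5%). Over all 23446 genes compared in this way, 4.2% lay above 2-fold and 3.44% below it, and 0 members lay below it. With a limit of 0 in place of 2-fold, 23 members were higher (60.5%, against 29.8% of all genes), 10 were lower (26.3%, against 31.1%) and 5 had an interval that included 0. The median log2 ratio was 0.22 over the members and -0.0049 over all genes. Most members are well expressed, so the comparison was repeated over genes with at least 500 counts, a limit chosen after the values had been seen. All 4 genes above 2-fold passed it, 4 of 37 members (10.8%), against 2.43% of the 11862 genes at that depth. The limit is on the sum of both libraries, and NFKBIZ, with 247 counts in vehicle, reached it through its 823 counts with (R)-9b. This share therefore describes the list again and adds no support. In this set 36.7% of all genes had an interval above 0 and 43.7% below, and 2.73% lay below 2-fold.

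**Figure D1:**
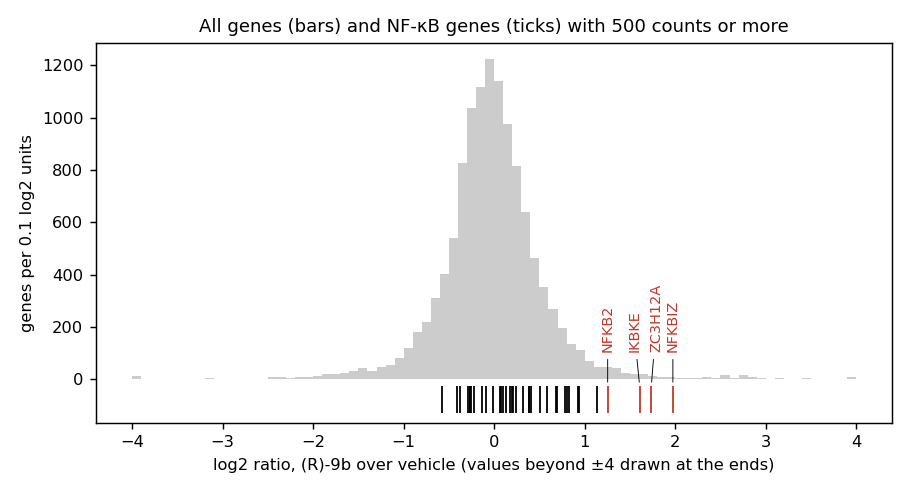
The bars count all 11862 genes with at least 500 counts by their log2 ratio of (R)-9b over vehicle, and the ticks under the axis mark the 37 NF-κB genes at that depth. The 4 genes in red lie above 2-fold, the lowest of them NFKB2 at 1.25, while the lowest tick, CYLD, lies at -0.58.

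Among the 5 subunits, NFKB2 stood apart from the others as the one above 2-fold, a limit passed by 4.2% of all genes. NFKB2 (ENSG00000077150, chromosome 10, 102394110 to 102402529, plus strand), which encodes p100 and its product p52, had 4829 counts in vehicle against 9766 counts with (R)-9b, or 72.5 CPM and 173 CPM. Its log2 ratio was 1.25 (95% interval 1.20 to 1.30), a 2.38-fold higher level. NFKB1, which encodes p105 and p50, had 51.8 CPM in vehicle against 67.5 CPM with (R)-9b, a log2 ratio of 0.38 (0.31 to 0.45). RELA, the main transactivating subunit, was the one subunit with an interval below 0, at 122 CPM and 115 CPM with a log2 ratio of -0.09 (-0.14 to -0.05). RELB, the usual partner of p52, had 10.6 CPM and 12.0 CPM, a log2 ratio of 0.18 (0.02 to 0.33). With all counts halved, the RELB interval included 0 (-0.04 to 0.40). REL, the subunit best known in lymphocytes, was the lowest of the 5 at 4.60 CPM and 4.91 CPM, with an interval that included 0 (-0.15 to 0.33). By estimated transcript counts, described below, its leading transcript REL-202 had a log2 ratio of 0.45 (0.15 to 0.76), an interval above 0. The REL estimates summed to 153% and 196% of the amount expected from the gene count, and the cause was not tested. That amount is 0.361 of the gene count in vehicle and 0.360 in (R)-9b, the median over genes with at least 500 counts.

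Per kilobase of annotated exon, the order of the subunits changed between the libraries. In vehicle RELA was highest at 22.3 CPM per kilobase, followed by NFKB2 at 16.2, NFKB1 at 8.28, RELB at 3.49 and REL at 0.349. With (R)-9b NFKB2 was highest at 38.6 CPM per kilobase, followed by RELA at 21.0, NFKB1 at 10.8, RELB at 3.95 and REL at 0.372. The ratio of NFKB2 to RELA thus went from 0.724 in vehicle to 1.84 in (R)-9b, and that of NFKB2 to its partner RELB from 4.63 to 9.76. These levels use all annotated exons of a gene, and the annotated exons of REL, 13170 bases, are 43.3% shared with a noncoding RNA on the same strand.

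**Figure D2:**
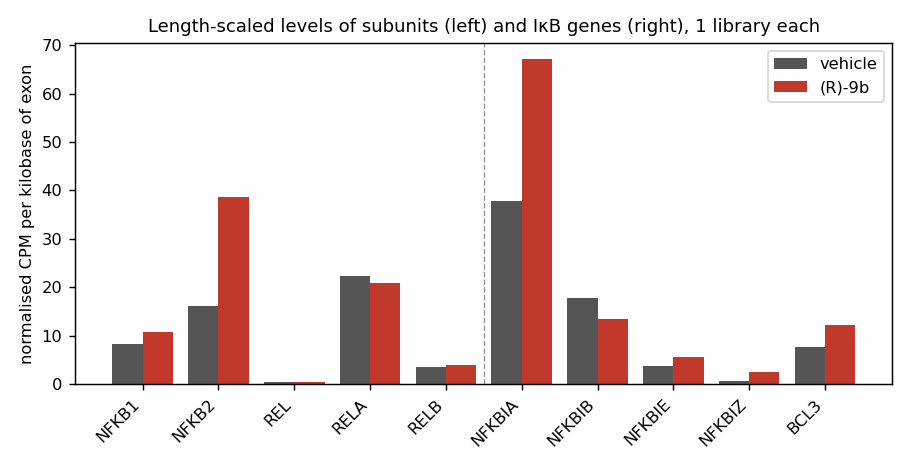
Bars give TMM-normalised CPM per kilobase of annotated exon for the 5 subunits (left of the dashed line) and the 5 IκB family genes (right), grey for vehicle and red for (R)-9b, 1 library each and without error bars. NFKB2 passes RELA in (R)-9b, at 38.6 against 21.0, and NFKBIA is the highest bar in both libraries.

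Of the 5 IκB family genes, 4 had an interval above 0 and 1 below it, where 29.8% and 31.1% of all genes had. NFKBIZ (ENSG00000144802, chromosome 3, 101827991 to 101861022, plus strand) encodes IκBζ, a nuclear, atypical IκB that acts as a cofactor at secondary response genes. It had 247 counts in vehicle against 823 counts with (R)-9b, or 3.71 CPM and 14.6 CPM, a log2 ratio of 1.97 (1.77 to 2.19) and the largest of the tested members. When all 23446 genes were ordered by the lower end of their interval, it was number 329. NFKBIA, which encodes IκBα, the classical inhibitor resynthesised after NF-κB activation, had 89.8 CPM in vehicle against 159 CPM with (R)-9b, a log2 ratio of 0.83 (0.78 to 0.88). BCL3, a nuclear partner of p50 and p52 dimers, had 24.6 CPM and 39.9 CPM (0.69, 0.60 to 0.79). NFKBIE, which encodes IκBε, had 9.76 CPM and 14.6 CPM (0.59, 0.44 to 0.74). NFKBIB, which encodes IκBβ, went the other way, from 41.4 CPM in vehicle to 31.1 CPM in (R)-9b with a log2 ratio of -0.41 (-0.50 to -0.33). Per kilobase, NFKBIB was at 0.471 of NFKBIA in vehicle and at 0.199 in (R)-9b, and both of their windows shown above hold a κB match.

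Of the 7 kinase genes, IKBKE alone lay above 2-fold, a limit passed by 4.2% of all genes, so this count says little about kinases. The 3 genes of the core complex had smaller ratios with intervals above 0, where 29.8% of all genes had. IKBKE (ENSG00000263528, chromosome 1, 206470476 to 206496889, plus strand) encodes IKKε, a kinase related to TBK1 that phosphorylates interferon regulatory factors and NF-κB subunits. It had 362 counts in vehicle against 935 counts with (R)-9b, or 5.44 CPM and 16.6 CPM, a log2 ratio of 1.61 (1.43 to 1.79). TBK1 had 41.2 CPM and 40.8 CPM, with an interval that included 0 (-0.10 to 0.06), so the length-scaled ratio of IKBKE to TBK1 went from 0.166 to 0.510. The exons of IKBKE overlap those of an antisense gene, C1orf147, over 156 bases, and that gene had 0 and 8 counts.

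Of the core complex, CHUK (IKKα) had 14.6 CPM in vehicle against 16.6 CPM with (R)-9b, a log2 ratio of 0.19 (0.06 to 0.32). IKBKB (IKKβ) had 28.0 CPM and 37.1 CPM (0.41, 0.32 to 0.50). IKBKG, the scaffold NEMO, had 6.55 CPM and 7.74 CPM (0.24, 0.05 to 0.44), and with all counts halved its interval included 0 (-0.03 to 0.52). IKBKG is a gene whose reads the counting can lose, since it has a near-identical pseudogene copy, and its estimated transcript counts were 490% and 524% of what its gene count would give at the usual ratio of the tables. MAP3K8, which encodes the kinase TPL2 that is held by p105, had 246 counts in vehicle against 457 counts with (R)-9b, a log2 ratio of 1.13 (0.90 to 1.36), just short of the limit at its lower end. MAP3K14 (NIK), the kinase of the noncanonical pathway, had 9.52 CPM and 9.99 CPM with an interval that included 0 (-0.10 to 0.23). Its exons overlap those of an antisense gene, MAP3K14-AS1, over 12.3% of their bases, and that gene had 98 and 175 counts. Thus of NFKB2, NIK and RELB in the noncanonical arm, NFKB2 was more than 2-fold higher, while NIK and RELB were within 0.18 of 0 on the log2 scale. Other genes that act in this arm, such as TRAF3, are given below, and some had intervals away from 0.

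The 11 adaptors, which link receptors to the kinases, had no member beyond 2-fold, a limit passed by 4.2% of all genes upwards and 3.44% downwards, so that 0 of 11 says little about adaptors. BIRC3 and BIRC2, the ubiquitin ligases cIAP2 and cIAP1, moved in opposite directions. BIRC3 had 8.11 CPM in vehicle against 15.6 CPM with (R)-9b, a log2 ratio of 0.94 (0.79 to 1.10), and BIRC2 had 37.1 CPM and 28.7 CPM, a log2 ratio of -0.37 (-0.46 to -0.28). Per kilobase, BIRC3 was at 0.132 of BIRC2 in vehicle and at 0.328 in (R)-9b. MYD88, the adaptor of Toll-like and interleukin-1 receptors, had 30.7 CPM and 49.4 CPM (0.69, 0.61 to 0.77). IRAK1, the kinase recruited by MYD88, was the most abundant member in both libraries at 416 CPM and 592 CPM (0.51, 0.49 to 0.53), whereas its relative IRAK2 was low, at 6.74 CPM and 7.08 CPM, and its interval included 0.

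TRAF3, which keeps NIK low at rest, had a log2 ratio of 0.38 (0.32 to 0.44) at 70.4 CPM in vehicle against 91.7 CPM with (R)-9b. TRAF2, which recruits the cIAP proteins, was at 0.13 (0.04 to 0.23). RIPK1, RIPK2 and TRAF6, which carry signals from TNF receptor 1, NOD receptors and interleukin-1 receptors, were all slightly lower, at -0.26 each. TRAF1, itself a known target in lymphocytes, had 8 counts in vehicle against 2 counts with (R)-9b, with an interval from -5.04 to 0.56, so a difference could not be seen at this depth.

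Of the 5 negative regulators, ZC3H12A was the one above 2-fold, a limit passed by 4.2% of all genes, so this count says little about the role. ZC3H12A (ENSG00000163874, chromosome 1, 37474552 to 37484379, plus strand) encodes Regnase-1, an endonuclease that degrades mRNAs of inflammatory genes, NFKBIZ among its known targets. It had 1143 counts in vehicle against 3229 counts with (R)-9b, or 17.2 CPM and 57.2 CPM, a log2 ratio of 1.74 (1.64 to 1.83). In these libraries the nuclease and its target NFKBIZ were thus both higher with (R)-9b. TNFAIP3, which encodes the ubiquitin-editing enzyme A20, had 11.3 CPM and 19.5 CPM, a log2 ratio of 0.78 (0.65 to 0.92). Its partners TNIP1 and TNIP2 were at -0.13 (-0.18 to -0.08) and 0.31 (0.23 to 0.40). CYLD, a deubiquitinase, was the lowest of the members with an interval below 0, at 36.5 CPM in vehicle against 24.5 CPM with (R)-9b with a log2 ratio of -0.58 (-0.68 to -0.48).

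Of the genes named for their induction by TNF, TNFAIP2 had 4.39 CPM in vehicle against 8.31 CPM with (R)-9b, a log2 ratio of 0.92 (0.71 to 1.14). TNFAIP1 was at 0.21 and TNFAIP8 at -0.29. The effector targets did not move together. SOD2, the mitochondrial superoxide dismutase, had 35.5 CPM and 61.8 CPM (0.80, 0.73 to 0.88), and its exons overlap those of WTAP on the opposite strand over 298 bases. ICAM1, the leukocyte adhesion molecule and a standard readout of the canonical pathway, was lower, with 38.5 CPM in vehicle against 33.0 CPM with (R)-9b and a log2 ratio of -0.22 (-0.31 to -0.14). The exons of ICAM1 overlap those of an antisense gene, AC011511.5, over 22% of their bases, and that gene had 6 and 5 counts. Estimated ICAM1 transcript counts summed to 143% and 145% of the amount expected from the gene count. PTGS2, the inducible cyclooxygenase, had 0 counts in vehicle against 5 counts with (R)-9b, and PLAU, the urokinase, had 0 and 2 counts. Both had fewer than 10 counts in all and were not compared. A count of 0 allows up to 3 counts, or 0.0451 CPM in the vehicle library.

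**Figure D3:**
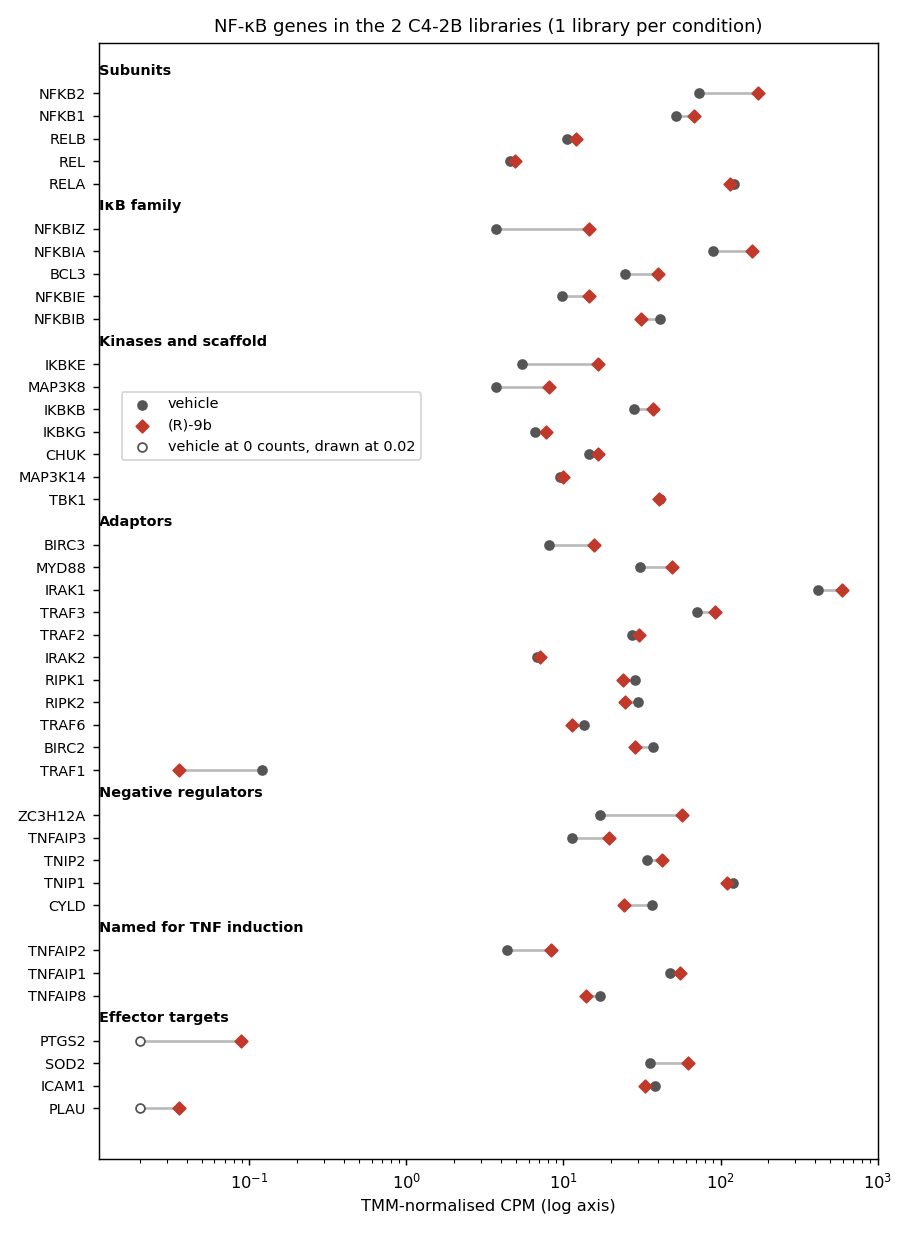
TMM-normalised CPM of the 40 members on a log axis, grouped by role, with grey circles for vehicle and red diamonds for (R)-9b, 1 library each. IRAK1 is the highest at 416 and 592 CPM, the longest lines among the well-expressed genes belong to NFKBIZ, ZC3H12A, IKBKE and NFKB2, and PTGS2 and PLAU are at 0 counts in vehicle (open circles, drawn at the left edge of the axis).

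A spread between cultures would widen every interval. With a coefficient of variation of 0.1 assumed in each library, a value that these data cannot give, NFKB2 no longer had its whole interval above 2-fold (0.85 to 1.66), while NFKBIZ (1.52 to 2.42), ZC3H12A (1.32 to 2.15) and IKBKE (1.17 to 2.04) still did. These 3 were 7.89% of the members, against 2.44% of all genes above 2-fold in the same setting. Under this assumption 14 members (36.8%, against 16.7% of all genes) were above 0 and 2, NFKBIB and CYLD (5.26%, against 15.5%), were below 0.

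**Figure D4:**
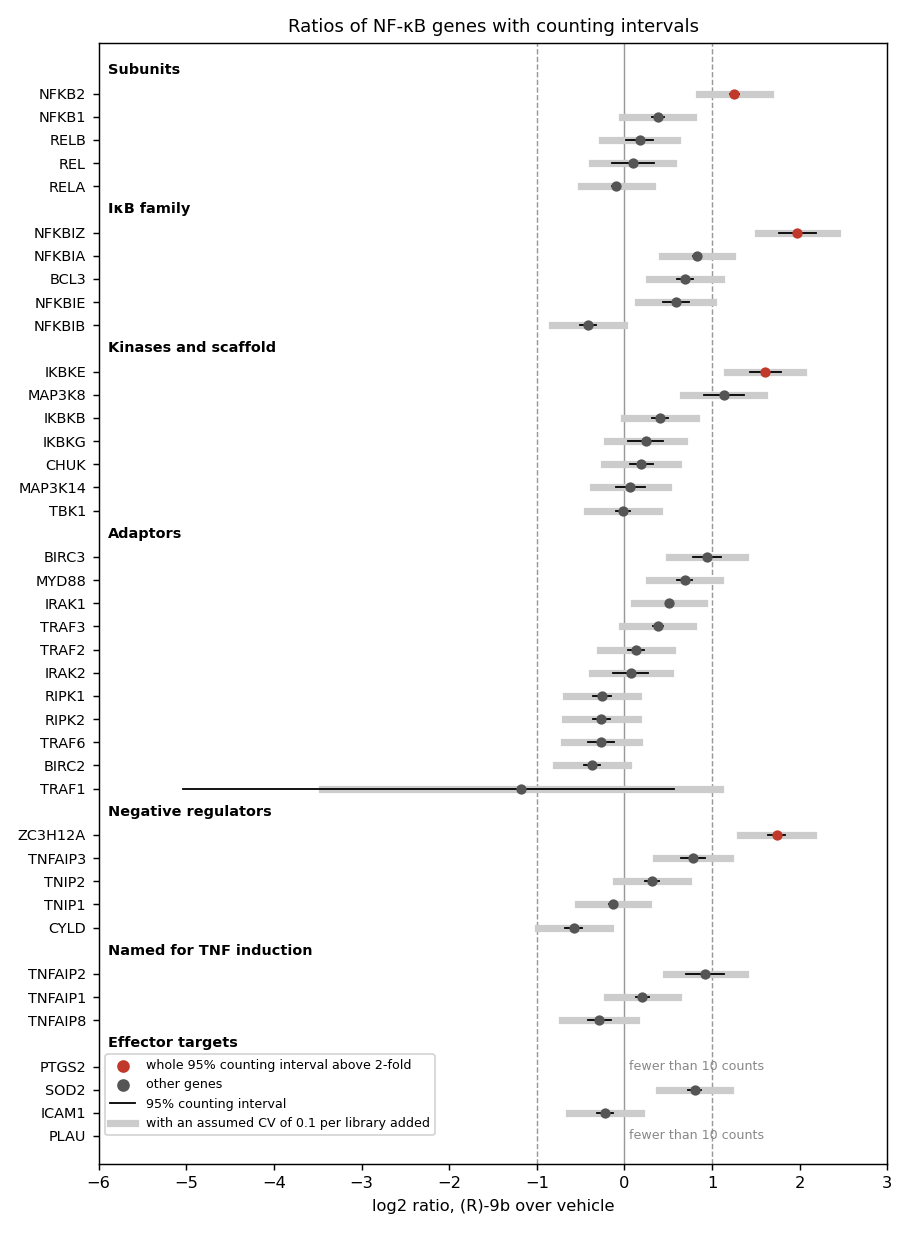
Log2 ratios of (R)-9b over vehicle for the 38 members with at least 10 counts, with the 95% counting interval (black line) and the interval after adding an assumed coefficient of variation of 0.1 per library (grey bar). The dashed lines mark 2-fold, and the 4 red points have their whole black interval above it, whereas the grey bar of NFKB2 crosses the line.

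A separate table of estimated counts per transcript was set beside the gene counts. These estimates come from another counting of the same 2 libraries and are no replicate. The amount expected from a gene count was 0.361 of it in vehicle and 0.360 in (R)-9b, the median over genes with at least 500 counts. For 33 of the 38 members the transcripts summed to at least 50% of this amount in both libraries. The other 5, NFKBIA, BCL3, TBK1, TRAF1 and TNIP2, were not read at transcript level, the first because its listed transcripts held only 8.91% and 10.3% of that amount. For NFKBIZ the 2 promoters shown above could be compared. Transcripts starting at the downstream promoter, led by NFKBIZ-202, had 57.8 estimated counts in vehicle and 197 in (R)-9b, and those starting at the upstream promoter, led by NFKBIZ-207, had 26.1 and 76.0. Both starts were higher in (R)-9b, and the leading transcript held 66.4% and 66.1% of the gene's estimate.

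ZC3H12A was carried by 1 transcript, ZC3H12A-201, with 419 estimated counts in vehicle and 1159 in (R)-9b, or 93.9% and 95.5% of the gene. IKBKE was led by IKBKE-203, with 115 and 274 estimated counts. NFKB2 had a pair of abundant coding transcripts, and the lesser of them had the larger ratio. NFKB2-211 went from 745 to 1155 estimated counts, a log2 ratio of 0.88 (0.75 to 1.02), and NFKB2-210 from 204 to 629, a log2 ratio of 1.87 (1.64 to 2.11), so that the share of NFKB2-210 was 18.9% in vehicle and 31.2% in (R)-9b. The listed NFKB2 transcripts summed to 62.1% and 57.5% of the amount expected from the gene count, so these shares leave out part of the gene. Neither transcript has a start in the annotation used, and the 3 NFKB2 windows shown above could be read only from minor transcripts. Their estimates were 68.9 in vehicle and 100.8 in (R)-9b at the upstream start, which has no κB match, 16.8 and 12.1 at the middle start, and 17.9 and 53.6 at the downstream start. For TNFAIP3 and BIRC3 the estimates moved between transcripts of the same gene, as with TNFAIP3-206 at 0 in vehicle and 212 in (R)-9b while TNFAIP3-201 went from 248 to 104, and the gene's sum, 277 and 432, was higher in (R)-9b as its gene count was. How much of such exchanges comes from dividing shared reads between transcripts was not tested.

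**Figure D5:**
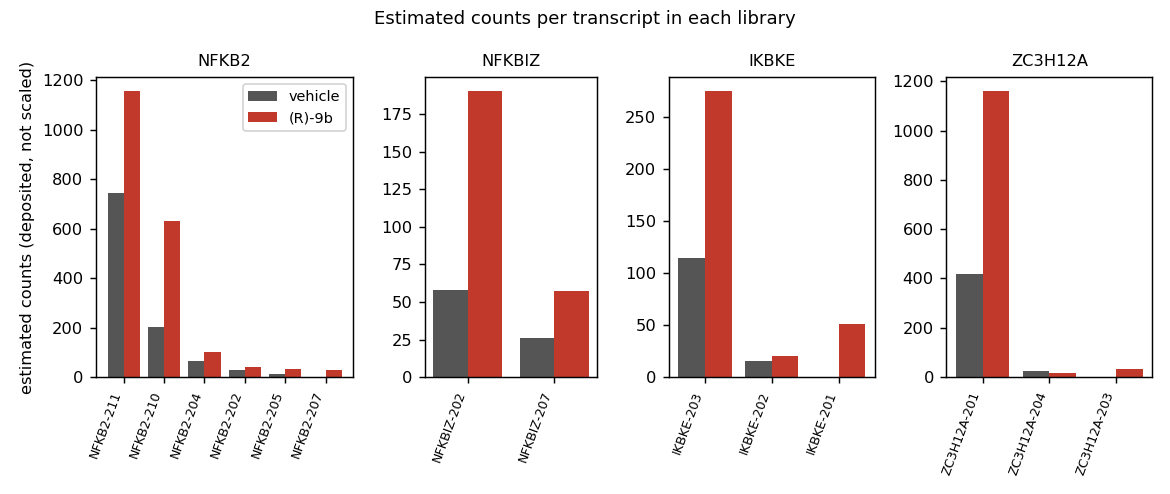
Deposited estimated counts, not scaled for library size, of the transcripts of NFKB2, NFKBIZ, IKBKE and ZC3H12A with at least 20 in a library, grey for vehicle and red for (R)-9b, each panel with its own axis. The leading transcript of each gene is higher in (R)-9b, from 57.8 to 190 for NFKBIZ-202 and from 419 to 1159 for ZC3H12A-201.

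Other genes of the pathway were read from a pair of lists, also chosen with earlier results of these data known, so their shares are descriptive. The first held 46 further signalling components, such as the TAK1 complex, the linear ubiquitin ligase and the CARD, BCL10 and MALT1 complex. Of these, 43 had enough counts, 1 lay above 2-fold and 1 below it (2.33% each, against 4.2% and 3.44% of all genes), 22 had an interval above 0 and 16 below, and the median log2 ratio was 0.08. Intervals above and below 0 held for 29.8% and 31.1% of all genes. RNF31, the catalytic subunit of the linear ubiquitin ligase, went from 5 to 37 counts, a log2 ratio of 3.13 (1.77 to 4.83). It shares 34.8% of its exon bases with an annotated readthrough gene on the same strand, so its reads may be left out as ambiguous. That gene went from 14 to 57 counts. PSME2, on the opposite strand with 2173 and 3108 counts, overlaps RNF31 over 216 bases. With a minimum count of 50 or with summed transcript counts, RNF31 was no longer above 2-fold and 0 genes of this list were. PELI2, a ubiquitin ligase of the IRAK kinases, was lower, with 662 counts without and 209 counts with (R)-9b and a log2 ratio of -1.43 (-1.66 to -1.20). MALT1, the protease of its complex, had 150 CPM in vehicle against 274 CPM with (R)-9b (0.87, 0.83 to 0.90), and was named after its value had been seen.

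The second list held 58 other genes described as NF-κB targets, of which 53 had enough counts. They went both ways, with 8 above 2-fold (15.1%, against 4.2% of all genes) and 7 below it (13.2%, against 3.44%). The median log2 ratio of the list was -0.02. Among the genes above 2-fold, SAA1, SAA2 and TNFAIP6 had 0 counts in vehicle. They reached the minimum count only through the (R)-9b library, in which they were higher. Among the genes below 2-fold, F3 reached it only through its vehicle counts. These shares therefore describe the list and test nothing. With the coefficient of variation of 0.1, 4 remained above 2-fold, SAA1, IER3, DUSP2 and SPHK1 (7.55%, against 2.44% of all genes), and 5 below it (9.43%, against 1.97%). That interval is a normal approximation and is very wide for genes at 0 counts, such as SAA2 and TNFAIP6. The acute-phase genes SAA1 and SAA2 had 0 counts in vehicle and 194 and 72 counts in (R)-9b, which is 76.3-fold and 28.3-fold higher when 3 counts are put in place of the 0 in vehicle. The exact intervals, which use the 0 itself, put them at least 61.4-fold and 22.4-fold higher. SAA1 and SAA2 are close paralogs between which reads can be divided. TNFAIP6, a hyaluronan-binding secreted protein, had 0 and 14 counts, by the exact interval at least 3.91-fold higher. IER3, an early-response survival gene with an antisense gene over 26.5% of its exon bases, went from 11 to 47 counts (2.33, 1.36 to 3.43). DUSP2, a phosphatase of MAP kinases, had 32.7 CPM in vehicle against 143 CPM with (R)-9b (2.13, 2.06 to 2.20). JUNB, an AP-1 subunit that shares 14.2% of its exon bases with HOOK2 on the opposite strand, was at 1.20, SLC2A6, a lysosomal sugar transporter, at 1.37, and SPHK1, which makes sphingosine 1-phosphate, at 1.44.

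Of the 7 targets that were lower, ATF3, a stress-inducible transcription factor, had 365 CPM in vehicle against 31.1 CPM with (R)-9b, a log2 ratio of -3.55 (-3.62 to -3.48). GADD45A, a growth-arrest gene, was at -1.92, CEBPB at -1.72, PFKFB3, a regulator of glycolysis, at -1.13, and SQSTM1, the autophagy receptor p62, at -1.06, the last with MRNIP on the opposite strand over 20.7% of its exon bases. F3, which encodes tissue factor, went from 58 to 7 counts, and ABCA1, a cholesterol exporter, from 64 to 13 counts. The adhesion genes VCAM1 and SELE had 4 counts at most in either library and were not compared, so ICAM1 was the one endothelial-type adhesion target with a measurable level.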

How the data were processed

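RNA sequencing of C4-2B cells was analysed, with 1 library for vehicle and 1 for (R)-9b. The authors deposited gene counts of uniquely aligned unambiguous reads, not normalized. The authors also deposited CPM and log2 CPM of the same libraries. Estimated counts per transcript were deposited by the authors without normalization. These served as alternatives. The study's methods and the submitters' processing notes name different versions of STAR, and the notes also name featureCounts and Salmon, without saying which table each made, and the build hg38. Strand use in the counting is not given in the sources used here. Low counts were mostly even (72.2% and 70.3% of genes with 1 to 20 counts), as when both mates of a pair are counted, so intervals are narrower than per fragment.

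Of 60871 lines, repeats were dropped. Counts were scaled by TMM (edgeR 4.0.16, R 4.3.3), with factors of 1.02 and 0.979. Exact Clopper-Pearson 95% intervals were computed for genes with at least 10 counts (scipy 1.17.1, numpy 2.4.6, pandas 2.3.3, Python 3.11.15), and figures with matplotlib 3.10.9. In place of a count under 3, 3 was used for ratios. Intervals do not account for PCR copies. The ratios and intervals were tested on simulated data. The simulated counts held only the counting error that the intervals assume. They therefore could not test the spread between cultures or the mostly even counts described above. Exon lengths and positions are from GENCODE 29 (GRCh38), and the deposited expression files use the same build. Alternatives included DESeq2 1.42.0 size factors. Members were named in full if their whole interval lay beyond 2-fold or they were subunits, and others by role. From the further lists those beyond 2-fold were named. The members and lists were chosen with earlier results of these data known. Transcript estimates were rounded to whole numbers for intervals.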

Additional observations from a re-analysis of the deposited data

How the results depend on the processing

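No paired analysis was possible because each condition had 1 library, and no library could be left out. The same 4 members lay above 2-fold with library totals, DESeq2 size factors, the upper quartile, TMM without mitochondrially encoded genes, minimum counts of 1 and 50, halved counts and summed transcript counts. The point ratio added MAP3K8 above and TRAF1 (1 member) below 2-fold. With halved counts 21 members were above 0 and 10 below. With an assumed coefficient of variation of 0.1 per library, NFKB2 dropped out, 14 members were above 0 and 2 below, 4 other targets were above 2-fold, and 0 other signalling components were below it. By construction that setting gives wider intervals for well-counted genes. Other signalling components above 2-fold numbered 0 with a minimum count of 50 and with summed transcript counts, and 2 by the point ratio. Summed transcript counts moved the members' median log2 ratio to 0.34, and the cause was not tested. Over the 11 alternatives tried for it, NFKBIZ ranged from 1.91 to 2.01, ZC3H12A from 1.68 to 1.77, IKBKE from 1.54 to 1.69, NFKB2 from 1.15 to 1.29 and RELA from -0.15 to -0.06. REL ranged from 0.03 to 0.46, the highest with summed transcript counts, and the cause was not tested. Library totals in place of TMM shift every log2 ratio by -0.06.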
